A study of Homo sapiens with 8 samples.

Results

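HL60/ADR is a human promyelocytic leukemia cell line derived from HL60 by stepwise exposure to Adriamycin (ADR, doxorubicin), up to 0.5 μg/ml. This section describes which of its genes carried strong, weak or no N6-methyladenosine (m6A) in methylated RNA immunoprecipitation sequencing (MeRIP-seq), in which RNA fragments pulled down with an m6A antibody (IP) are read against fragments taken before the pull-down (input). All 38834 peaks of the HL60/ADR list were taken, out of 79384 in the lists of HL60/ADR and HL60, and joined by gene to the mean of the 2 HL60/ADR input libraries. They fell in 15285 genes, of which 14268 were among the 27996 genes of the expression table. The parental HL60 cells had no ADR, and the resistant cells were kept without drug for a week before RNA was taken. Each line gave 2 IP and 2 input libraries from poly(A) RNA. The resistant line is 1 selected derivative, so its differences from HL60 cannot be told apart from those of any long-cultured subline. Its libraries were assigned by their titles, since their source and cell line fields give HL60. The study calls the 2 replicates biological duplicates, but no label says whether they came from separate cultures. A p-value therefore reflects the spread of these libraries, which may be technical.

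m6A is the most common internal modification of messenger RNA. A writer complex around the methyltransferase METTL3 and its partner METTL14 places it, mostly in the sequence context DRACH and often near stop codons, in long internal exons and in 3' UTRs. The erasers FTO and ALKBH5 remove it, and readers such as the YTHDF proteins bind it and affect decay, splicing or translation of the message. The antibodies used for m6A also bind N6,2'-O-dimethyladenosine (m6Am), a modified adenosine that can follow the cap when a transcript begins with A. In myeloid leukemia the writers are known for sustaining proliferation and blocking differentiation.

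The identity of the resistant line was examined first. All 10 promyelocytic and myeloid markers reached 5 FPKM (fragments scaled by transcript length and library size) in HL60/ADR input, and their summed FPKM was 1490 and 1530 in its 2 libraries against 556 and 562 in HL60. Of 15 T and NK cell markers, 4 reached 5 FPKM, each with a mean of at least 40.9, *TRAC* and *CD3D* among them. The sums of the list were 406 and 411 against 124 and 130. *TRAC*, the T-cell receptor alpha constant gene, stood at 185 and 192 FPKM against 30.7 and 30.6 in HL60. *CD3D* stood at 54.7 and 55.6 against 0.469 and 0.617. *TRAC* and *CD3D* did not make up the whole of the sums. The T-cell genes *CD3E*, *CD2*, *CD7* and *LCK* were all under 1 FPKM. Of 7 monocyte and macrophage markers, 2 reached 5 FPKM, with sums of 33.6 and 32.9 against 23.6 and 22.1. No B-cell, erythroid or epithelial marker had a mean of 5 FPKM. The epithelial sum differed between the HL60/ADR replicates, 14.0 against 2.34, mainly through *KRT18* at 5.38 and 0.0398 FPKM. *CDKN2A*, which HL60 is described as lacking, had 4.04 and 3.83 FPKM in HL60/ADR and was also listed in HL60, at 2.28 and 2.29 FPKM. What these values of other cell types contributed to the results below was not tested.

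Genes were classed by their strongest peak. Strong genes had a peak of fold enrichment (IP over input) 10 or more at a false discovery rate of at most 1e-05. A gene was weak when its strongest peak stayed under 4, and without a peak when none was assigned to it. All other genes were intermediate, including those with a peak of 10 or more that missed the false discovery limit. The leading peak of a gene is its strongest at that false discovery limit, or its strongest where none met it. Classes were counted over the 5865 genes with a mean of 5 FPKM or more in HL60/ADR input, which held 13377 peaks, because a few recurring ratios make up many peaks of rarer transcripts. Of these genes, 994 were strong (16.9%, 95% Wilson interval 16.0 to 17.9), 2409 intermediate (41.1%), 1473 weak (25.1%) and 989 had no peak (16.9%, 15.9 to 17.8). The intervals cover counting error over genes only, since the authors called 1 peak list from both replicates and the IP has no replicate spread here. The weakest strong gene had a value of 10.0 and the highest intermediate gene at the same false discovery rate 9.99, so the boundary is a convention and not a gap.

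The classes differed by biotype. Among 5361 protein-coding genes, 17.8% were strong and 13.1% had no peak. Of 223 pseudogenes, 62.8% had no peak and 9 were strong. The 60 long noncoding RNA genes lay at the extremes, with 28.3% strong and 31.7% without a peak. The join has a limit, since a peak was assigned by the authors to 1 gene even where genes overlap. Of the 989 genes without a peak, 282 (28.5%) had a peak of another gene under their span, and the leading peak of 315 of the 994 strong genes (31.7%) lay under more than 1 gene. Leaving out the first set brought the share without a peak to 12.7%, and leaving out the second brought the strong share to 12.2%.

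Transcripts with a peak on their start began with A more often than the others. RefSeq starts (GRCh38.p14) could be matched for 4535 genes. A peak covered at least 25 of the first 50 transcribed bases in 1311 of them, and 52.1% of these began with A (49.4 to 54.8), against 39.3% (37.7 to 41.0) of the 3224 genes with no peak there. The difference was present at 5 to 20 FPKM (51.7% against 40.4%) and at 20 FPKM or more (53.4% against 36.5%). The share was not larger at higher enrichment, being 53.8% at a fold enrichment under 4, 52.3% from 4 to 10 and 47.3% from 10 upward, with overlapping intervals. Genes with no peak anywhere began with A in 34.8% of cases. The motif GGAC, searched on the transcribed strand, was found in the first 50 bases of 20.8% of genes with a peak there, 19.4% of those without and 19.8% of all, and GGACT, which contains it, in 5.03%, 4.47% and 4.63%. RefSeq starts are not starts measured in these cells, and a match is a description of the letters only. The first 30 transcribed bases of the 5 genes with the highest enrichment over a start at A show the base next to the cap in capitals.

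PTPN12 (chr7:77538043-77538072, plus strand, fold enrichment 512): Aaggtatctggctgtgaccgggaggagtgc
FLVCR1 (chr1:212858275-212858304, plus strand, fold enrichment 147): Agaccttcatctgttcacgcggtagcgcgg
MORF4L1 (chr15:78872890-78872919, plus strand, fold enrichment 134): Aaatccggcccaggatgtagagctggcagt
FKBP2 (chr11:64241095-64241124, plus strand, fold enrichment 124): Agcaccaccggggttgactccgggggcgcg
HEXIM1 (chr17:45148475-45148504, plus strand, fold enrichment 101): Agcagttggaagttggcaggtggagaggca

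Ribosomal protein genes differed from all genes in their starts. Many have a terminal oligopyrimidine start, a C followed by an unbroken run of C and T that marks messages of the translation machinery. A start of C and at least 4 further pyrimidines was found in 43 of 63 matched cytosolic ribosomal protein genes (68.3%) and in 7.30% of all matched genes. It was present in 5.62% of strong, 6.45% of intermediate, 7.44% of weak and 12.0% of genes without a peak. Among genes with no peak over the start the share was 8.41%, and 7.38% (6.52 to 8.35) without ribosomal protein genes. In genes with a peak over the start, ribosomal ones included, it was 4.58% (3.57 to 5.85). How much of the 12.0% was due to ribosomal protein genes was not tested. Over the start of ribosomal protein genes, 12.7% had a peak, against 28.9% of all genes. These shares were not compared at equal expression. Of 79 ribosomal protein genes, 74 lay at 100 FPKM or more, where 63.2% of all genes had any peak, against 85.8% at 5 to 20. A peak over the start was found in 6 of 43 with the pyrimidine run (14.0%) and 2 of 20 without it (10.0%). These counts are too small to tell whether such a peak went with the run. Shown with their pyrimidine run in capitals are the 5 most abundant ribosomal protein genes without any peak that had such a start.

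RPS12 (chr6:132814569-132814598, plus strand): CTCTTTCCCTgccgccgccgagtcgcgcgg
RPS27 (chr1:153990762-153990791, plus strand): CCTTTCCggcggtgacgacctacgcacacg
RPL7A (chr9:133348218-133348247, plus strand): CTTTCTCTCTCCTCCCgccgcccaagatgg
RPS3A (chr4:151099628-151099657, plus strand): CCCTTTTggctctctgaccagcaccatggc
RPLP0 (chr12:120201082-120201111, minus strand): CCTTCTCTCgccaggcgtcctcgtggaagg

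Peaks also lay over microRNA hairpins. Of 1562 RefSeq hairpins, 30 were wholly inside a peak block, and 14 of these sat in a peak that met the false discovery limit of 1e-05 and in a gene of at least 1 FPKM. The strongest of these peaks covered the gene ENSG00000265206, within which *MIR142* lies, with a fold enrichment of 56.4 over chr17:58330884-58332508, its whole length of 1625 bases. miR-142 is an abundant microRNA of blood cells. This gene had 7.11 and 6.20 FPKM in HL60/ADR and 20.9 and 21.8 in HL60, and the libraries of the lines did not overlap (log2 fold change -1.55, SE 0.07, adjusted p = 7.29e-05, limma). Its fold enrichment in HL60 was 61.3. *MIR6501* lay, on the same strand, in an exon peak of *SON*, a splicing cofactor gene with 18.5 and 19.6 FPKM, at a fold enrichment of 7.02. Their mature sequences are given with the seed, bases 2 to 8, in capitals. The 4 seeds differ from each other.

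hsa-miR-142-3p: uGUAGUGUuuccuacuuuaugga
hsa-miR-142-5p: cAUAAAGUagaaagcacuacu
hsa-miR-6501-5p: aGUUGCCAgggcugccuuuggu
hsa-miR-6501-3p: cCAGAGCAgccugcgguaacagu

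**Figure D1:**
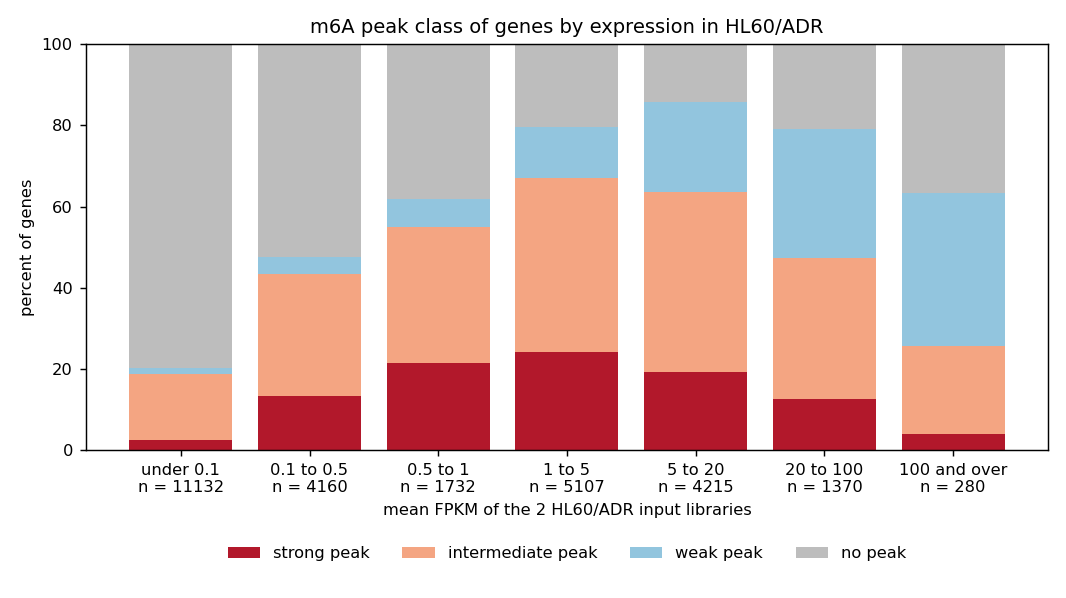
Bars show the percent of genes in each m6A class (colours) in bins of the mean FPKM of the 2 HL60/ADR input libraries, with the number of genes under each bar. The share with any peak was 20.4% below 0.1 FPKM, 85.8% at 5 to 20 FPKM and 63.2% at 100 FPKM and over, where 3.93% of genes were strong.

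How often a gene had a peak, and how strong it was, went with its expression in different ways, as the bars by expression bin show. A peak was assigned to 20.4% of genes under 0.1 FPKM, 79.7% at 1 to 5, 85.8% at 5 to 20, 79.1% at 20 to 100 and 63.2% at 100 or more. The strong share was 24.2% at 1 to 5 FPKM, 19.2% at 5 to 20, 12.7% at 20 to 100 and 3.93% (2.21 to 6.90) at 100 or more. The median fold enrichment of single peaks was lower in every next bin, with 7.98 under 0.1 FPKM, 3.84 at 5 to 20 and 2.58 at 100 or more. The same few ratios recurred among rare transcripts. The 5 most frequent values, 6.21, 7.09, 7.98, 8.87 and 9.75, were held by 30.6% of peaks in genes under 1 FPKM and by 6.22% of peaks in genes of at least 5 FPKM. Because of this dependence, gene groups below are also read within 5 to 20 FPKM, where 809 of 4215 genes were strong and 599 had no peak.

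The 10 highest fold enrichments lay between 155 and 960. *ZNF316*, a zinc finger gene, had 960 at 5.48 and 5.31 FPKM, and *PTPN12*, a tyrosine phosphatase that acts on adhesion proteins, had 512 at 23.1 and 23.5 FPKM. *PARVG*, a parvin that links integrins to actin in blood cells, followed with 221 at 18.6 and 19.1 FPKM, and *NEAT1*, the noncoding RNA that scaffolds nuclear paraspeckles, with 220 at 31.8 and 31.4 FPKM. The replicates of expression lay close together in each of these genes, while the reads behind each ratio are unknown. The ubiquitin-conjugating enzyme *UBE2K* had 216, the SUMO protease *SENP3* 201, the forkhead transcription factor *FOXO4* 198, *HDDC2* 190, the syntaxin *STX4* 159 and the tetraspanin *CD82* 155. The peak of *NEAT1* lay under 3 listed genes and that of *SENP3* under 2. Of these 10 leading peaks, those of *PARVG* and *CD82* were annotated to the 3' UTR, that of *NEAT1* to an exon and the other 7 to the 5' UTR. All 10 genes were also strong in the HL60 list, with lower values from 20.2 for *CD82* to 151 for *PARVG*. The genes with the most peaks were not all strong. *RNF213*, a giant ubiquitin ligase, had 28 peaks of a fold enrichment of 2 or more, *KLC1* and *KMT2A* 16 each and *CARD8* and *SLC16A3* 14 each, and of these *RNF213* and *KMT2A* were intermediate and the other 3 strong.

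**Figure D2:**
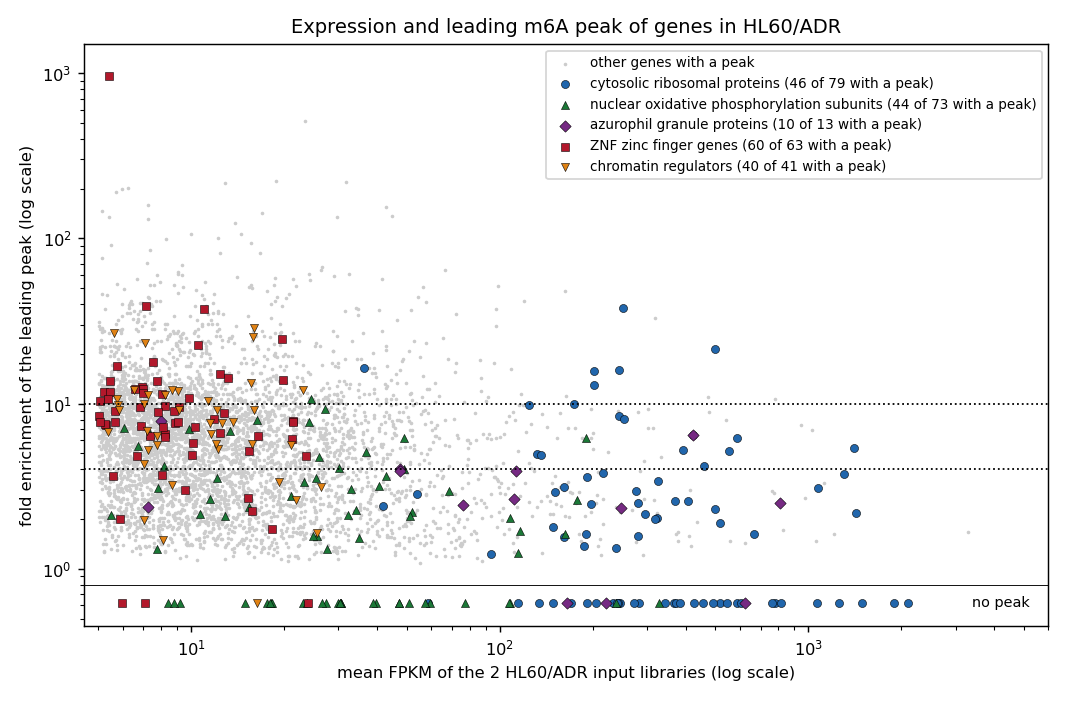
Each point is a gene with a mean of 5 FPKM or more, placed by its expression (log axis) and by the fold enrichment of its leading peak (log axis), with genes of 5 lists coloured and those without a peak in the strip at the bottom. Dotted lines mark fold enrichments of 4 and 10. Ribosomal protein genes lie to the right and low, with 46 of 79 having a peak, and zinc finger genes to the left and high, with 60 of 63.

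The most abundant messages without a peak were products of central metabolism, iron storage and the ribosome. *GAPDH*, a glycolytic enzyme, had 3954 and 4110 FPKM and no assigned peak, and *FTL*, the ferritin light chain, 3374 and 3461. The ribosomal protein genes *RPS12* (1891 and 1908 FPKM), *RPS2*, *RPS27*, *RPL7A*, *RPS3A* and *RPLP0* and the galectin gene *LGALS1* (871 and 863) were also among the 10 most abundant. Under the span of *RPS2* lay 2 peaks of another gene, and under those of the other genes named here none. The 5 most abundant weak genes reached a fold enrichment of 1.68 for the elongation factor *EEF1A1* (3259 and 3335 FPKM), 2.19 for *RPS18*, 3.75 for *RPL13A*, 3.31 for the actin-binding thymosin *TMSB4X* and 3.10 for *RPL8*. Many of these genes have near-identical processed copies in the genome, and how reads that map to several places were treated is not given in the sources used here, so their peaks are uncertain.

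Ribosomal and respiratory genes carried few strong peaks, and for ribosomal genes this was also so for other genes as abundant. Of 79 cytosolic ribosomal protein genes, 5 were strong (6.33%, 2.73 to 14.0), 15 intermediate, 26 weak and 33 had no peak (41.8%, 31.5 to 52.8), and 8 of these 33 had a neighbour's peak under their span. The exceptions included *RPS24*, with a 3' UTR peak of 38.1 at 249 and 252 FPKM, and *RPS14*, with a 5' UTR peak of 21.3. Among 73 nuclear genes of oxidative phosphorylation, 0 were strong (upper limit of the interval 5.00%), 18 intermediate, 26 weak and 29 without a peak, led in abundance by *COX8A*, a subunit of cytochrome c oxidase, at 328 and 330 FPKM. The complex I gene *NDUFB9* had a peak of 10.6 that missed the false discovery limit. Among respiratory genes, 0 of 23 were strong at 5 to 20 FPKM (upper limit 14.3%, all genes 19.2%) and 0 of 40 at 20 to 100 (upper limit 8.76%, all genes 12.7%), where 42.5% had no peak (28.5 to 57.8, all genes 20.9%). At 100 FPKM or more, where 74 of the 79 ribosomal protein genes lay, 5.41% of them were strong (2.12 to 13.1) and 43.2% had no peak (32.6 to 54.6), and the intervals contained the 3.93% and 36.8% of all genes there. The low strong share of ribosomal genes was thus not distinguished from that of genes at their level.

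Other groups of protein turnover and the cell cycle did not stand clear of all genes in their strong or no-peak share alone. Mitochondrial ribosomal proteins were strong in 6 of 64 and without a peak in 14, proteasome subunits in 3 and 9 of 40, translation factors in 5 and 12 of 51, and aminoacyl-tRNA synthetases in 1 and 4 of 23. The intervals of all these shares contained 16.9%. The proteasome was mostly weak, with 21 of 40 genes and a median strongest fold enrichment of 3.04 over genes with a peak, against 6.33 over all genes. *EIF3F*, a subunit of an initiation factor, was the strongest translation factor at 39.0, and *EEF1B2*, an elongation factor subunit with 382 and 389 FPKM, had no peak. Of the mitotic genes, 2 of 37 were strong, *TACC3* at 18.6 and the centromeric histone *CENPA* at 10.6, and cyclin A2 (*CCNA2*, 36.8 and 34.3 FPKM) had no peak of its own, with 1 of a neighbour. Of DNA replication genes, 4 of 37 were strong, and 5 had no peak, led in enrichment by the polymerase subunit *POLD4* at 40.8, in a peak under 3 listed genes.

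**Figure D3:**
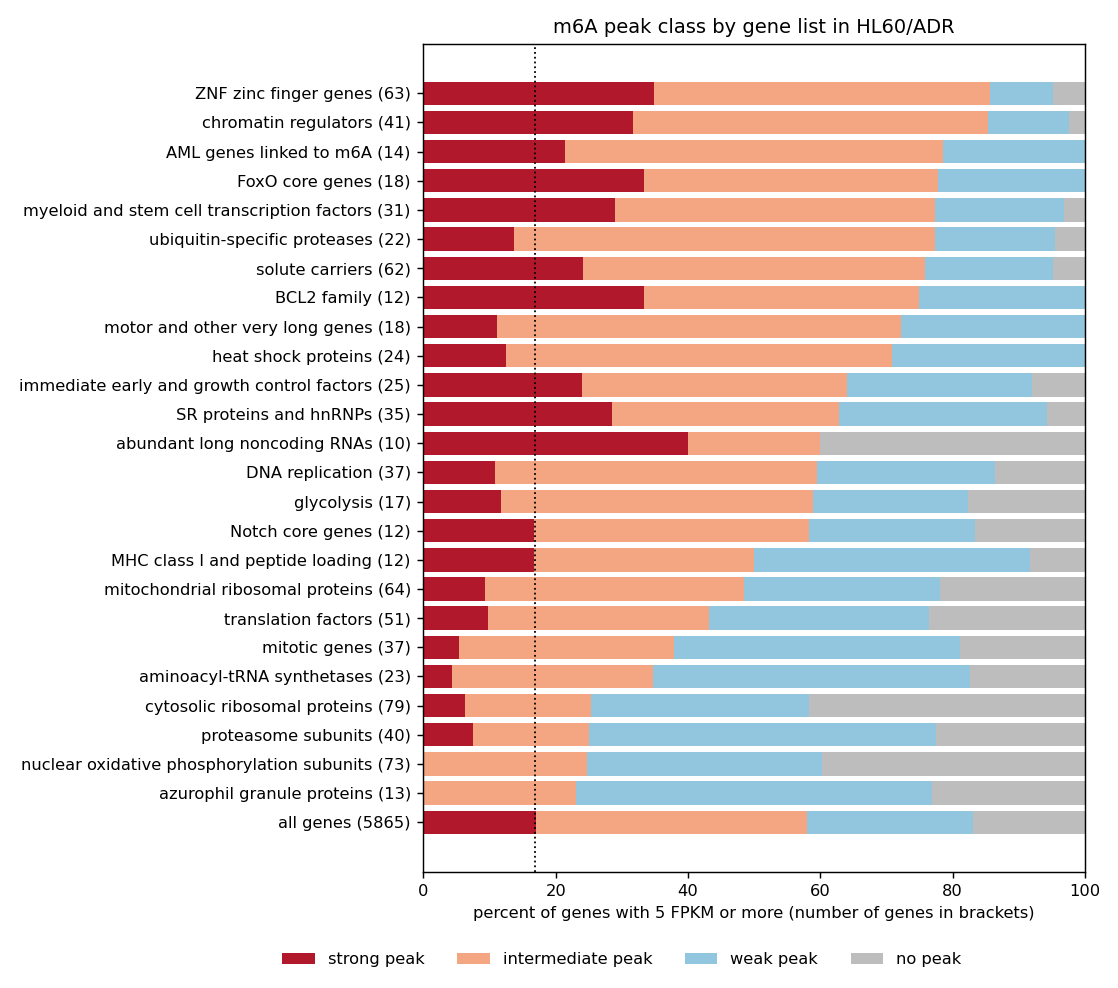
Horizontal bars give the percent of genes in each m6A class for gene lists with at least 10 genes of 5 FPKM or more, the number of genes in brackets. The dotted line marks the strong share of all genes, 16.9%. Zinc finger genes and chromatin regulators stand at 34.9% and 31.7%, and respiratory genes and azurophil granule genes at 0.

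Regulators of transcription stood at the opposite end. Of 63 *ZNF* zinc finger genes, 22 were strong (34.9%, 24.3 to 47.2), 32 intermediate, 6 weak and 3 without a peak, and within 5 to 20 FPKM 22 of 58 were strong. *ZNF524* had a 5' UTR peak of 39.0, under 2 listed genes, at 7.89 and 6.41 FPKM, whereas *ZNF511*, at 23.3 and 24.5 FPKM, had none of its own and 5 peaks of neighbours under its span. Chromatin regulators were strong in 13 of 41 (31.7%, 19.6 to 47.0) and without a peak in 1, with *CHD3*, a helicase of the NuRD complex, at 28.7 and *TRRAP*, a scaffold of histone acetyltransferase complexes, at 26.6. Only the deacetylase gene *HDAC3* (16.4 and 16.4 FPKM) had no peak there. The intervals of both groups lay above the strong share and below the no-peak share of all genes. At 5 to 20 FPKM, 33.3% of chromatin regulators were strong (20.2 to 49.7), against 19.2% of all genes. Without a peak there were 2 of 58 zinc finger genes (upper limit 11.7%) and 1 of 36 chromatin regulators (upper limit 14.2%), against 14.2% of all genes. With strong set at 20 or more, 5 of 63 zinc finger genes (7.94%, 3.44 to 17.3) and 4 of 41 chromatin regulators (9.76%, 3.86 to 22.5) were strong, and both intervals contained the 5.01% of all genes. Without strong genes whose leading peak lay under several genes, the chromatin regulators had 8 of 36 (22.2%, 11.7 to 38.1), which contained the 12.2% of all genes.

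Transcription factors of the myeloid lineage had 9 strong genes of 31 (29.0%, 16.1 to 46.6, which contained the share of all genes) and 1 without a peak. *FLI1*, an ETS factor of haematopoiesis, had 23.1 at 25.4 and 25.2 FPKM, *CEBPE*, which drives granulocyte maturation, had 19.2 at 53.5 and 57.1 FPKM, and *MEF2D* had no peak at 11.4 and 12.0 FPKM. Immediate early and growth control factors counted 6 strong of 25. *HEXIM1*, an inhibitor of the elongation kinase P-TEFb, reached 101 and *JUN*, an AP-1 subunit, 44.4, while *JUNB* (94.7 and 89.9 FPKM) had none of its own and 3 of neighbours. RNA-binding SR proteins and hnRNPs were strong in 10 of 35 (28.6%, 16.3 to 45.1), led by *HNRNPUL1* at 41.0 with 57.5 and 57.9 FPKM. Solute carriers were strong in 15 of 62 and without a peak in 3, a no-peak share of 4.84% (1.66 to 13.3), which contained the 12.7% of all genes once genes under a neighbour's peak were left out, with the glutamine transporter *SLC1A5* at 38.1. Heat shock proteins had 0 of 24 genes without a peak (upper limit 13.8%) and 3 strong ones. When only peaks of fold enrichment 2 or more counted, 4 of 24 had none (16.7%, 6.68 to 35.9), against 24.4% of all genes.

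Survival and stress signaling was read against all genes, of which 16.9% were strong and 16.9% had no peak. Of 18 listed FoxO core genes, 6 were strong and 0 lacked a peak, with *SMAD3*, a transducer of TGF-β signals, at 81.6 behind *FOXO4*. In the BCL2 family, 4 of 12 genes were strong and 0 lacked a peak. *BAX*, a pore-forming death effector, had a 3' UTR peak of 61.2 at 9.12 and 8.96 FPKM, *BCL2L1*, *BCL2L2* and the mitophagy receptor gene *BNIP3* had 12.7, 11.2 and 10.9, and the survival gene *BCL2A1*, at 78.7 and 80.0 FPKM, was weak at 3.83. *BCL2* itself, under the expression limit at 4.53 and 4.51 FPKM, had 15.0. The intervals of the no-peak shares, up to 17.6% for FoxO and 24.2% for BCL2, contained that of all genes. So did those of the strong shares, 16.3 to 56.3 for FoxO and 13.8 to 60.9 for BCL2. In Notch signaling 2 of 12 genes were strong, the DNA-binding effector *RBPJ* at 12.2 and the ligand *JAG1* at 10.1.

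Further groups lay near all genes in their strong share. Of 17 glycolytic genes 2 were strong, *PFKL*, a phosphofructokinase, with an exon peak of 61.2 at 31.6 and 33.1 FPKM and the pyruvate kinase gene *PKM* with 32.8 at 315 and 320 FPKM, in contrast to *GAPDH* in the same pathway. In antigen presentation by MHC class I, 2 of 12 were strong, the chaperones *PDIA3* and *TAPBP* at 17.7 each, and *HLA-B* had no peak of its own and 1 of a neighbour. Ubiquitin-specific proteases counted 3 strong of 22, led by *USP15* at 22.2, and very long housekeeping genes 2 of 18, led by the apoptosis inhibitor *BIRC6* at 33.7 in a peak under 2 listed genes. Of 6 replication-dependent histone genes at 5 FPKM or more 1 was strong, *H2BC21* at 12.6. Their messages mostly lack a poly(A) tail, so poly(A) RNA represents them poorly.

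Genes of the azurophil granule, which marks the promyelocyte, were highly expressed and had no strong peak, as was so for most genes at their level. Of 13 azurophil granule genes, 0 were strong (upper limit 22.8%), 3 intermediate, 7 weak and 3 without a peak. *CTSG*, the protease cathepsin G, had 795 and 819 FPKM and a fold enrichment of 2.50, myeloperoxidase (*MPO*) 244 and 252 FPKM and 2.33, and *ELANE*, neutrophil elastase, 6.46 and 8.05 FPKM and 2.35. The proteoglycan gene *SRGN* (623 and 623 FPKM), the bactericidal protein gene *BPI* (218 and 223) and the cystatin *CST7* (164 and 165) had no peak. At 100 FPKM or more, 7 of 8 were weak or without a peak (87.5%, 52.9 to 97.8), against 74.3% of all genes there. Of the 2 genes at 5 to 20 FPKM, *ELANE* was weak and *CTSC*, a protease that activates the granule enzymes, was intermediate at 7.86. Myeloid transcription factors among the markers differed, with *SPI1* strong at 10.3 and 89.2 and 90.9 FPKM.

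Among genes that handle the drug, the efflux pump was intermediate. *ABCC1*, a transporter that exports anthracyclines, had 278 and 283 FPKM in HL60/ADR against 29.3 and 29.3 in HL60 and a 3' UTR peak of 8.88. All 3 efflux genes at 5 FPKM or more were intermediate, among them *ABCA2*, a lipid transporter, whose strongest peak of 6.65 missed the false discovery limit. *ABCG2*, another anthracycline exporter, was listed at 0.0410 and 0 FPKM without a peak. The topoisomerase genes, whose products the drug poisons or which resolve DNA strain, were weak, with *TOP2A* at 2.50, *TOP2B* at 1.34 and *TOP1* at 2.96. *TDP2*, which repairs topoisomerase II lesions, was strong at 11.1, and the glutathione transferase gene *GSTP1*, at 183 and 180 FPKM, had no peak.

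Among listed long noncoding RNAs, both strong genes and genes without a peak were found. Of 10 listed genes at 5 FPKM or more, 4 were strong, 2 intermediate, 0 weak and 4 without a peak. The interval of the strong and of the no-peak share was 16.8 to 68.7, which contained the 16.9% of all genes. Beside *NEAT1*, the strong genes were *SNHG29* at 37.2, *TUG1* at 26.6 and the nuclear speckle RNA *MALAT1* at 13.1 in its leading peak. Those without a peak were *GAS5* (88.2 and 87.4 FPKM), *SNHG1*, *SNHG6* and *ZFAS1*, all hosts of small nucleolar RNAs, with 1 and 2 peaks of neighbours under the spans of *SNHG6* and *ZFAS1*. *NORAD*, which binds PUMILIO proteins, had 8.65.

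KEGG pathways were counted in the same way. Of 2533 genes with a pathway, 138 pathways held at least 30. The 5 with the lowest strong share were oxidative phosphorylation (1 of 101, 0.99%), Parkinson disease (2 of 103), bacterial invasion of epithelial cells (1 of 34), thermogenesis (7 of 144) and retrograde endocannabinoid signaling (3 of 58). With the exception of bacterial invasion, these sets share the respiratory chain genes. The 5 highest began with Wnt signaling (16 of 49, 32.7%, 21.2 to 46.6) and vascular smooth muscle contraction (10 of 31). Next came transcriptional misregulation in cancer (24 of 76, 31.6%, 22.2 to 42.7). Herpes simplex virus 1 infection (29 of 96) and osteoclast differentiation (19 of 64) completed the 5. Their strongest members, picked after their values were seen, recur across sets: *SMAD3* and *JUN* in Wnt signaling, *MAPK3* (51.4) and *GNAS* (56.8) in smooth muscle contraction, *BAX* and the cell cycle inhibitor *CDKN2C* (41.7) in transcriptional misregulation, and the AP-1 factor *FOSL2* (27.4) in osteoclast differentiation. Genes in several pathways are counted in each.

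**Figure D4:**
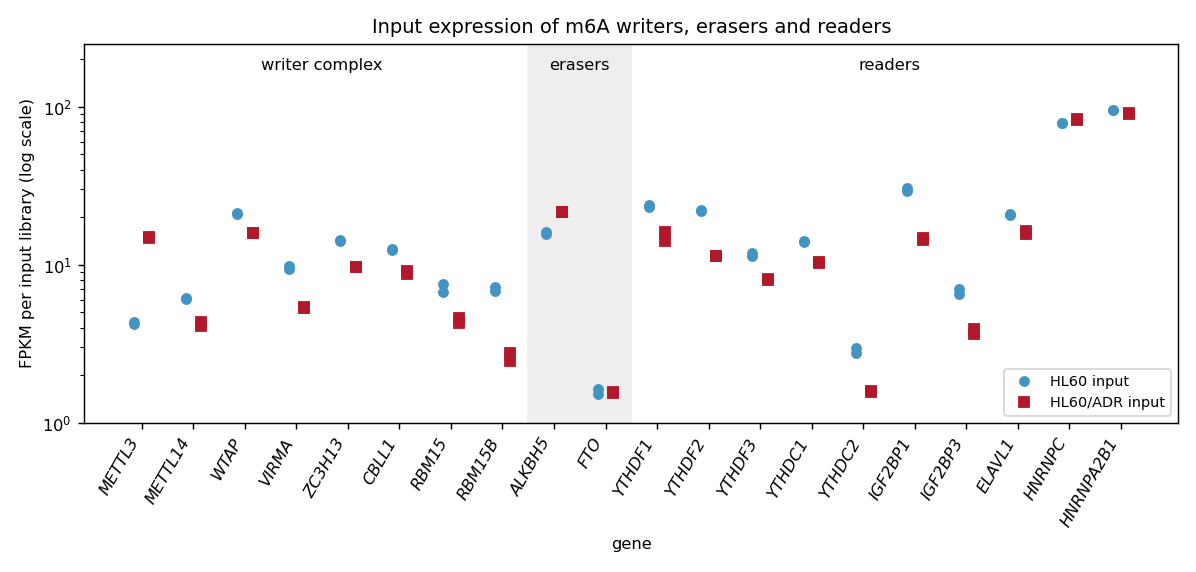
Points give the FPKM (log axis) of each input library for genes of the m6A writer complex, erasers and readers, 2 HL60 libraries in blue and 2 HL60/ADR libraries in red. *METTL3* lies at 14.8 and 15.1 in HL60/ADR above 4.23 and 4.36 in HL60, while *METTL14*, *VIRMA* and the *YTHDF* genes lie lower in HL60/ADR.

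The machinery of m6A was itself marked to varying degree. In the writer complex the catalytic subunit *METTL3* was weak, with a 5' UTR peak of 3.88, as was *WTAP*, the regulatory subunit, at 1.37. *METTL14*, *ZC3H13* and *VIRMA* were intermediate at 8.80, 7.59 and 7.02, and the adaptors *CBLL1*, *RBM15* and *RBM15B* were strong at 11.5, 11.5 and 12.0. *METTL14*, *RBM15* and *RBM15B* stayed under 5 FPKM. *METTL3* had 14.8 and 15.1 FPKM against 4.23 and 4.36 in HL60, without overlap, and was called higher (log2 fold change 1.59, SE 0.03, adjusted p = 1.64e-05, limma). *RBM15B*, at 2.48 and 2.76 FPKM against 6.86 and 7.21, was called lower (-1.15, SE 0.06, adjusted p = 0.000108). The eraser *ALKBH5*, at 21.7 and 21.6 FPKM, had a peak of 5.32, and *FTO*, at 1.54 and 1.58 FPKM, one of 3.25. Of the readers, *YTHDF2*, which recruits the deadenylase, and *YTHDF3* were strong at 10.9 and 10.6 and *YTHDF1* was intermediate at 7.14. *IGF2BP3*, which stabilizes methylated messages, had 36.4 at 3.65 and 3.93 FPKM, and the abundant nuclear readers *HNRNPC* (83.2 and 84.2 FPKM) and *HNRNPA2B1* (90.9 and 90.5) had 2.51 and 6.15.

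Genes linked to m6A in the literature on acute myeloid leukemia fell in several classes. Of 14 at 5 FPKM or more, 3 were strong, 8 intermediate, 3 weak and 0 without a peak. The transcription factor gene *SP2* had 24.4, *TACC3* 18.6 and the TNF receptor gene *TNFRSF1B* 13.2. *MYC*, a driver of proliferation, had a peak of 8.11 at 17.1 and 17.4 FPKM, against 109 and 110 FPKM in HL60. *CEBPA*, a granulocytic regulator, had 8.02 at 21.7 and 20.3 FPKM against 79.8 and 80.4, while *MYB* was weak at 2.56 with 46.6 and 47.9 FPKM. Under the expression limit, *RARA*, the retinoic acid receptor, had 12.4 and *MDM2* 13.1. Of the 5 genes the study took to qPCR, *FADS2* had a 3' UTR peak of 36.8, *BTBD2* 24.8 and *SLC38A10* 14.7, *NUP214* had 4.49, and *HPS1* had 18.6 in a peak that missed the false discovery limit. That list was chosen by the study on these samples and is not independent evidence.

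**Figure D5:**
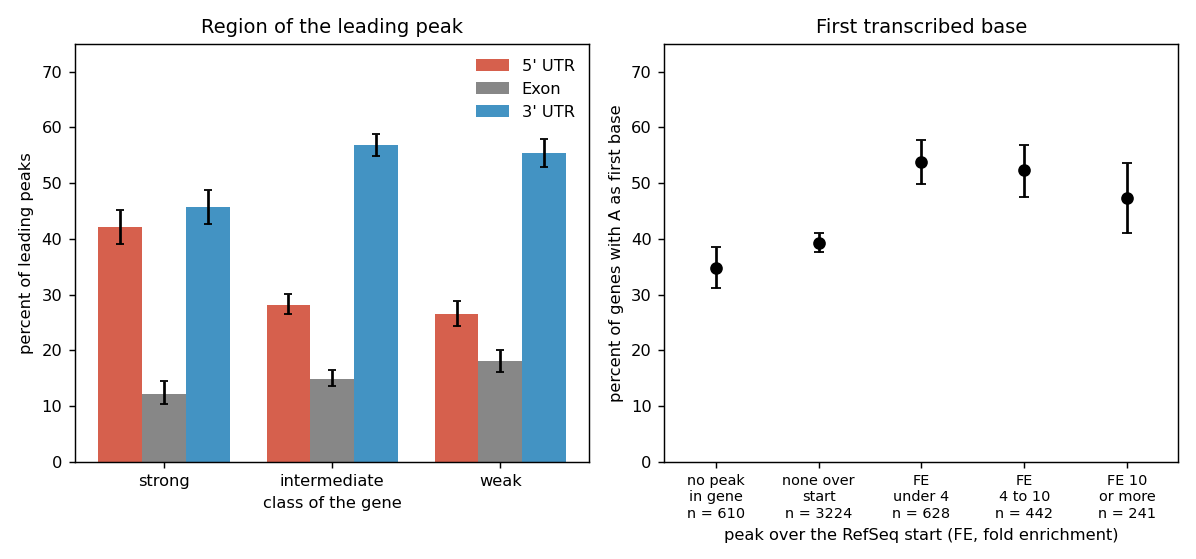
The left panel gives the percent of leading peaks annotated to the 5' UTR, an exon or the 3' UTR in strong, intermediate and weak genes, the right panel the percent of genes whose RefSeq transcript begins with A, by fold enrichment (FE) of a peak over the start. Bars and points carry 95% Wilson intervals. The 5' UTR share is 42.2% in strong against 28.2% and 26.5% in the other classes.

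Strong peaks were annotated more often to the 5' UTR. The leading peak lay there in 42.2% of strong genes (39.1 to 45.2), 28.2% of intermediate and 26.5% of weak genes, and in the 3' UTR in 45.7%, 56.9% and 55.5%. Leading peaks were longer in strong genes, with a median of 840 bases against 659 and 271, and the annotation gives 1 region to each peak, however many exons it crosses. Among peaks of 1 block the order was the same at lower shares, 27.9%, 19.3% and 15.8%. Over all 38834 peaks, 21.9% were assigned to the 5' UTR, 33.0% to exons and 45.1% to the 3' UTR. Of the exon peaks, 20.6% lay in an exon of another gene than the one assigned. Strong genes had 3 or more peaks in 62.1% of cases and weak genes in 18.4%. Genes without a peak were shorter, with a median span of 18158 bases in protein-coding genes against 30014 in strong, 32668 in intermediate and 22602 in weak ones. The same order of strong above none held at 5 to 20 FPKM (33312 against 23265), at 20 to 100 (18719 against 16244) and at 100 or more (23054 against 5077, with 11 strong genes).

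Input expression was compared between the lines to place the classes. limma on log2(FPKM + 1) called 8.93% of 13053 tested genes higher and 13.8% lower in HL60/ADR, with a log2 fold change past 1 either way and an adjusted p below 0.05. At 5 FPKM or more in HL60/ADR, where selection on that line favours higher genes, 13.1% were higher and 9.79% lower. Strong genes were higher in 13.9% and lower in 10.8%, intermediate genes in 11.0% and 10.4%, weak genes in 12.4% and 9.64%, and genes without a peak in 18.3% and 7.58%. The median log2 fold change was -0.05 in strong genes and 0.09 in genes without a peak. Of the 79 ribosomal protein genes 62 were called higher and 0 lower, 26 of the 62 among genes without a peak, and of 13 azurophil granule genes 7 were higher and 0 lower. The input libraries enter both the fold enrichment and this contrast.

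The classes of the same genes in HL60 were compared as a description, since each line has 1 pooled list and no test is possible. Among 5127 genes with at least 5 FPKM in both lines, 16.3% were strong in HL60/ADR and 5.38% in HL60, and 16.5% and 14.8% had no peak. Of the 4097 genes with a peak in both lists, the median strongest fold enrichment was 6.30 in HL60/ADR and 4.29 in HL60, and the value of HL60/ADR was higher in 74.3%. Depth and antibody yield of single IP libraries were not analysed here. From these lists, a difference in scale and a difference in methylation cannot be told apart. By dot blot, a measure apart from the peak lists, the study reports a higher global m6A level in HL60/ADR. In genes strong in HL60/ADR the medians were 14.2 and 7.09, and in weak genes 2.55 and 2.56, a contrast that choosing the classes on the HL60/ADR value itself brings about in part. Of all 994 strong genes, whatever their expression in HL60, 217 were strong, 696 intermediate, 72 weak and 9 without a peak in HL60. Of all 989 genes without a peak, 688 had none in HL60 either. Zinc finger genes expressed in both lines were strong in 16 of 48 in HL60/ADR and 5 of 48 in HL60, chromatin regulators in 13 and 3 of 40, and myeloid transcription factors in 8 and 0 of 29, whereas respiratory genes were strong in 0 of 71 in each. The 9 genes strong in HL60/ADR and without a peak in HL60 included *BROX* and *ALOX5*. *BROX*, which takes part in repair of the nuclear envelope, had 33.7, with 6.74 and 7.30 FPKM against 6.26 and 6.27. *ALOX5*, the 5-lipoxygenase gene, had 22.2, with 5.80 and 5.85 FPKM against 0.0119 and 0.0140. With so little *ALOX5* transcript in HL60, the missing peak there is no measure of its methylation. *FAM96AP2* and *FAM157B*, also among the 9, were likewise under 1 FPKM in HL60. The reverse, strong in HL60 and without a peak in HL60/ADR, was seen in 3 genes, of which *NSF*, a fusion ATPase of membrane traffic with a fold enrichment of 138 in HL60, had 19.8 and 19.3 FPKM in HL60/ADR against 17.9 and 18.0 in HL60.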

How the data were processed

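The authors trimmed reads by fastp and mapped them with HISAT2 (GRCh38, Ensembl annotation), called peaks with exomePeak at p under 0.05 from both replicates of a line and annotated them with ChIPseeker. The deposited peak lists hold the fold enrichment, a ratio of IP to input, a p-value, and as scores the log10 of p and of the adjusted p. The authors' StringTie FPKM is deposited per gene and input library. Counts and the depth per library were not used here, so the precision behind a ratio or an FPKM is unknown. Peaks were joined to genes by Ensembl identifier. Classes and lists were counted with Python 3.11.15, pandas 2.3.3 and bedtools 2.31.1, with 95% Wilson intervals and no set test. The 2 HL60/ADR input libraries were compared with the 2 of HL60 by limma 3.58.1 in R 4.3.3 on log2(FPKM + 1), with trend, two-sided, over genes with a mean of at least 0.5 FPKM and with Benjamini-Hochberg adjustment. The study's methods name a count-based test for expression, which these values do not allow. The limma step was tested on simulated data. Replicate numbers did not pair the samples. Biotypes, starts and microRNAs came from RefSeq (GRCh38.p14), with 96.8% of genes at 5 FPKM matched by symbol and chromosome.

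Members, lists and classes were chosen with earlier results of these data known. Named genes were the 10 with the highest fold enrichment, the 10 most abundant protein-coding genes without a peak, the 5 most abundant weak genes, the 5 with the most peaks, the strongest members and the most abundant member without a peak of each list, members of the m6A, leukemia and qPCR lists, and the 5 highest and 5 lowest pathways. Genes shown for their starts, microRNAs and single-line classes, and further members of the granule, BCL2, drug and noncoding lists, were picked after their values were seen. Some genes that these rules name are not reported here. Lists were also counted within expression bins, a choice made after their values were seen. Alternatives were other expression limits, other limits for strong peaks, other peaks, each replicate left out, and other settings of limma.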

Additional observations from a re-analysis of the deposited data

How the results depend on the processing

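Leaving out either HL60/ADR input replicate gave strong shares of 17.0% to 17.0% and no-peak shares of 16.6% to 16.8%. Settings moved the shares of 16.9% further. The strong share was 20.3% at 1 FPKM or more, 11.2% at 20 or more, 25.8% with strong at 8, 5.01% with strong at 20, 20.2% without the false discovery limit, and 12.2% without strong genes whose leading peak lay under several genes. The no-peak share was 18.5% at 1 FPKM, 23.6% at 20 FPKM, 24.4% when only peaks of fold enrichment 2 or more counted, and 12.7% without genes under a neighbour's peak. The settings on overlapping genes were chosen after seeing the data. Of 16 lists with at least 20 genes, 11 of 32 shares had intervals that excluded the share of all genes. Over 110 alternatives to these, the direction turned in 1: at 20 FPKM or more, zinc finger genes lay -11.2 percentage points from all genes in strong share, on 5 genes. The interval came to contain the share of all genes for 7 of the 11 at 20 FPKM or more (ribosomal strong share 6.33% against 11.2%), 3 with strong at 20, 2 with only peaks of fold enrichment 2 or more, 3 without genes under a neighbour's peak and 1 without strong peaks under several genes. Peaks in 5' UTR, exons and 3' UTR were 25.7%, 23.0% and 51.3% among peaks that met the false discovery limit with a fold enrichment of at least 4, and 28.2%, 22.2% and 49.6% in genes of 5 FPKM or more. The 1165 higher and 1798 lower genes in the input became 1778 and 2712 with a pseudocount of 0.1. With the replicate number as a block they were 1165 and 1800; deviations of same-numbered samples correlated with r = 0.0433, over 2 pairs. Leaving out 1 input library gave 1157 to 1178 higher and 1799 to 1831 lower.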
